A study of Mus musculus with 8 samples.

Results

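Long m6A peaks of mouse liver mRNA are described here, that is, peaks that covered at least 1000 exonic bases. They were chosen by the length of the deposited peaks themselves, as the sum of the exonic pieces (blocks) of each peak, so their length and anything that follows from it is a description. The control list held 413 of them among 15635 peaks, which is 2.64% of the list, and the Wtap-HKO list held 522 among 19185, which is 2.72%. Together they were 935 of 34820 peaks. The shortest members were a 1001-base peak of Rnf113a2 and a 1007-base peak of Rab20 in the control list, and 1012-base peaks of Cd86 and ENSMUSG00000097724 in the Wtap-HKO list. Just under the limit lay 991-base peaks of Hnrnpul2 and Rbm19 in the control list and of Tnfaip3 and Zeb2 in the Wtap-HKO list.

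The study immunoprecipitated fragmented liver mRNA with an antibody against m6A and sequenced it beside input RNA. The control mice were Wtap flox/flox, and the Wtap-HKO mice carried the same floxed allele with Alb-Cre, so the deletion was driven by the albumin promoter in hepatocytes. All were C57BL/6 mice by the labels, with the background given as C57BL/6J in the methods, of 8 weeks on normal chow, and each group of IP or input had 2 libraries, every library made from a pool of several mice. The 2 replicates of a genotype are combined in 1 list, so no value below has a replicate error and no difference between the genotypes was tested. The intervals given are 95% Wilson intervals and cover counting error only, and since neighbouring peaks of 1 gene are not independent they are too narrow.

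m6A is a methyl mark on adenosine that a nuclear writer complex places on mRNA as it is made. METTL3 is the catalytic subunit, METTL14 helps it bind RNA, and WTAP holds the complex in nuclear speckles. Single marks occupy single bases, and they are dense near stop codons and in long internal exons. A peak is a stretch of transcript with more IP than input reads, so a long peak is a stretch over which that excess was not interrupted.

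A set of 4 genes with long peaks that began at the annotated start of the transcript are shown first, because they let the mapped stretch be read as letters: Gdf2, which encodes the circulating ligand BMP9, Art4, an ADP-ribosyltransferase family gene, Rrbp1, a ribosome-binding protein of the endoplasmic reticulum, and Apoa5, an apolipoprotein of triglyceride metabolism. The windows are from RefSeq (GRCm38.p6) and run 5′ to 3′ on the strand of the gene. Lower case marks the 70 bases before the start, and capitals mark the first 30 transcribed bases, all of which lay inside a long peak.
Gdf2, chr14:33940969-33941068, plus strand: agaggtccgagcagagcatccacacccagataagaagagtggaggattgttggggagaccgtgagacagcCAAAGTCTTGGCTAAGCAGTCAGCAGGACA
Art4, chr6:136857571-136857670, minus strand: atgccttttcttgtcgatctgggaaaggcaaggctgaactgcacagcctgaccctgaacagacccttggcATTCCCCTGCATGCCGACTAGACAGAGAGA
Rrbp1, chr2:144011234-144011333, minus strand: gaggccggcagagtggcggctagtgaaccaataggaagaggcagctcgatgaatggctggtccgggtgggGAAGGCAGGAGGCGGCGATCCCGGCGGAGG
Apoa5, chr9:46268563-46268662, plus strand: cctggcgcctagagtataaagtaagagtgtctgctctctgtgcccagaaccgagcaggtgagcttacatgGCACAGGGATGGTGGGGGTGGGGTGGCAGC

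The letters GGAC, the core of the usual m6A context, were searched on the printed strand alone, as m6A lies on the transcript. They stood once in the Gdf2 window, within the capitals, and in none of the other 3. Of 32851 such windows of RefSeq genes, 30.7% held GGAC and 11.2% held it in the capitals. In Gdf2 and Art4 the peak reached the start in the Wtap-HKO list alone. The Gdf2 peak had 1 block of 2510 bases in control livers at 22.7-fold enrichment, and 2 blocks with 2988 bases together in Wtap-HKO livers at 63-fold. Art4 had 3 control peaks of 151, 271 and 360 bases, and 1 Wtap-HKO peak of 2457 bases in 3 blocks that covered them all. Rrbp1 was the same in both lists, with 2340 bases in 2 blocks, at 6.68-fold and 14.2-fold. Apoa5 had 1 control peak of 2196 bases in 4 blocks, and in Wtap-HKO livers a 1365-base peak in 4 blocks with a further 356-base peak after it. These 4 genes show the kinds of change that recur below, an extension, a fusion, an unchanged peak and a split.

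Length fell off steeply in both lists, and the long peaks were its tail. The median length of long peaks was 1199 bases in control livers, with quartiles of 1079 and 1409, and 1256 bases in Wtap-HKO livers, with quartiles of 1107 and 1526. The longest control peak lay in Ankrd11, a chromatin-associated ankyrin repeat protein, and had 2789 bases. The longest Wtap-HKO peak lay in Plec, the cytolinker plectin, and had 4379 bases. Few as they were, long peaks held 10.1% of all exonic bases in control peaks and 11.5% in Wtap-HKO peaks. At 1500 bases and more the lists drew apart, with 72 control and 137 Wtap-HKO peaks.

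**Figure D1:**
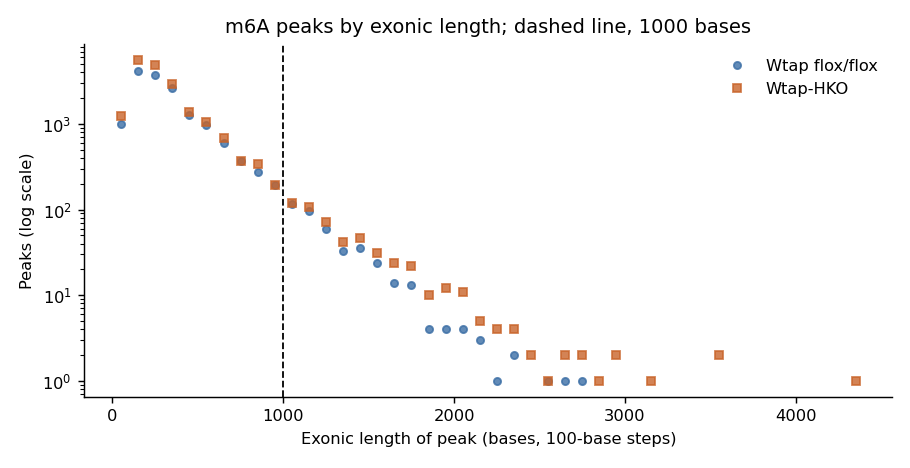
Number of m6A peaks (log scale) by exonic length in steps of 100 bases, circles for Wtap flox/flox and squares for Wtap-HKO, with the limit of 1000 bases dashed. Steps with no peak have no point. Both lists fall off alike up to the limit, and beyond it the control list ends at 2789 bases and the Wtap-HKO list at 4379 bases.

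Long peaks were also strongly enriched ones. Fold enrichment is the deposited linear ratio of IP over input, from the same contrast as the length, so it is given without a test. Its median over long peaks was 11.4 in control livers, against 5.51 over all control peaks, and 17.8 in Wtap-HKO livers, against 5.93. The median long peak stood at percentile 80.5 of its list for fold in control livers and 84.8 in Wtap-HKO livers. Fold was higher in longer peaks in both lists, but in the control list the medians of peaks of 1000 to under 1500 bases and of 1500 bases and more were nearly the same, at 11.4 and 11.5, while in the Wtap-HKO list they were 16.3 and 24.5. The deposited log10 false discovery rate was minus infinity, the lowest value the caller wrote, for 90 long control and 117 long Wtap-HKO peaks. The same count over all peaks was not made, so these numbers do not set long peaks apart from shorter ones.

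Long control peaks hardly ever vanished from the Wtap-HKO list. Each was set against the Wtap-HKO peaks that shared at least 1 exonic base with it on the same strand, called its partners. Without a partner were 2 of 413 (0.484%, interval 0.133 to 1.75), against 19.9% of all control peaks. A longer peak has more room to share 1 base with another peak, so this low share is tied to the rule. The 2 peaks were in Inpp5f, a phosphoinositide phosphatase, with 1078 bases at 5.71-fold, and in Hsd3b5, a steroid dehydrogenase of the liver, with 1013 bases at 5.68-fold. Neither gene had any peak in the Wtap-HKO list. Of all exonic bases in long control peaks, 85.5% lay inside Wtap-HKO peaks, against 74.2% for all control peaks.

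Long control peaks were often split. With 2 or more partners were 137 (33.2%, interval 28.8 to 37.8), against 3.04% of all control peaks. A longer peak has more room for several partners, so this share is tied to the rule. A single partner as long or longer was found for 135 (32.7%, interval 28.3 to 37.4), against 47.5% of all, and a single shorter one that kept at least 50% of the length for 126 (30.5%, interval 26.3 to 35.1), against 25.7%. Only 13 (3.15%, interval 1.85 to 5.31) met a single partner of less than 50% of their length, against 3.9%. Among long control peaks a split was thus about as frequent as an unshortened partner, and a single partner of less than 50% of the length was rare. Split peaks are not in that last class, though some of them lost much length as well. The partners of a split peak together had a median of 0.793 of its length, and the lowest ratio was 0.335.

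**Figure D2:**
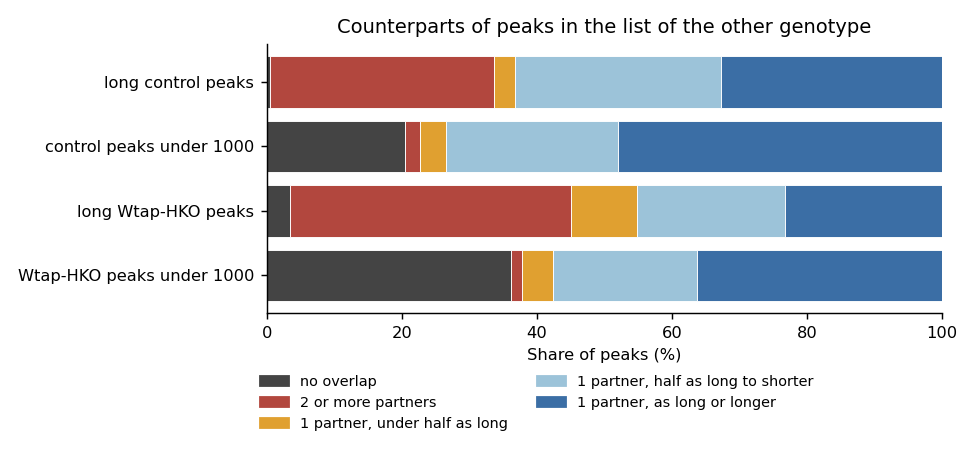
Share of peaks (%) by what the list of the other genotype held at the same place, for long peaks and for peaks under 1000 bases of each list. Splits take 33.2% of long control and 41.6% of long Wtap-HKO peaks, and peaks with no overlap 0.484% and 3.45%.

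The same reading from the other side gave the same kinds of change. Of 522 long Wtap-HKO peaks, 217 (41.6%, interval 37.4 to 45.8) had 2 or more control partners, against 2.69% of all Wtap-HKO peaks. A single control partner as long or longer was found for 121 (23.2%), against 35.9%, and a single shorter one of at least 50% of the length for 115 (22.0%), against 21.3%. A single control partner under 50% of the length was found for 51 (9.77%, interval 7.51 to 12.6), against 4.81%, and no partner for 18 (3.45%, interval 2.19 to 5.38), against 35.3%. Control peaks covered 71.2% of the bases of long Wtap-HKO peaks, against 62.1% for all Wtap-HKO peaks. In this direction as well a longer peak has more room for partners. A peak picked for length in 1 list tends to meet shorter peaks in any other list, so neither direction alone shows a loss or a gain of length.

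The peaks were therefore also counted over regions, each a connected set of overlapping peaks of both lists. There were 684 regions with a long peak. In 318 (46.5%) 1 control peak met 1 Wtap-HKO peak. In 209 (30.6%, interval 27.2 to 34.1) control livers had more peaks than Wtap-HKO livers, and in 130 (19.01%, interval 16.2 to 22.1) Wtap-HKO livers had more. Over all 21364 regions the counts were 472 (2.21%) and 434 (2.03%). The 284 regions long in the Wtap-HKO list alone held 175 (61.6%) with more control peaks. The 174 long in the control list alone held 116 (66.7%) with more Wtap-HKO peaks. Both counts are tied to the choice of regions by length in 1 list. Among the 226 regions long in both lists, 34 (15.04%, interval 10.97 to 20.3) had more control peaks. There 14 (6.19%, interval 3.73 to 10.1) had more Wtap-HKO peaks. How far the choice of regions accounts for the surplus was not tested. The rest of the 684 regions were 7 with equal numbers of 2 or more, 2 in the control list alone and 18 in the Wtap-HKO list alone.

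Of the 664 regions with peaks in both lists, 371 (55.9%) had more exonic peak bases in Wtap-HKO livers, 271 (40.8%) fewer and 22 the same, beside 46.5%, 42.7% and 10.8% over all 11662 regions of both lists. The larger number of regions long in the Wtap-HKO list alone shapes these counts. The median ratio of Wtap-HKO to control bases was 1.05, with quartiles of 0.900 and 1.498, beside a median of 1 and quartiles of 0.801 and 1.33 over all regions of both lists. Regions long in both lists numbered 226, and there the ratio had a median of 1 with quartiles of 0.956 and 1.08. Of these 106 had more bases in Wtap-HKO livers and 98 fewer. A ratio near 1 there, and the wider spread in the regions long in 1 list alone, are tied to the rule, which set the length in both lists or in 1.

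**Figure D3:**
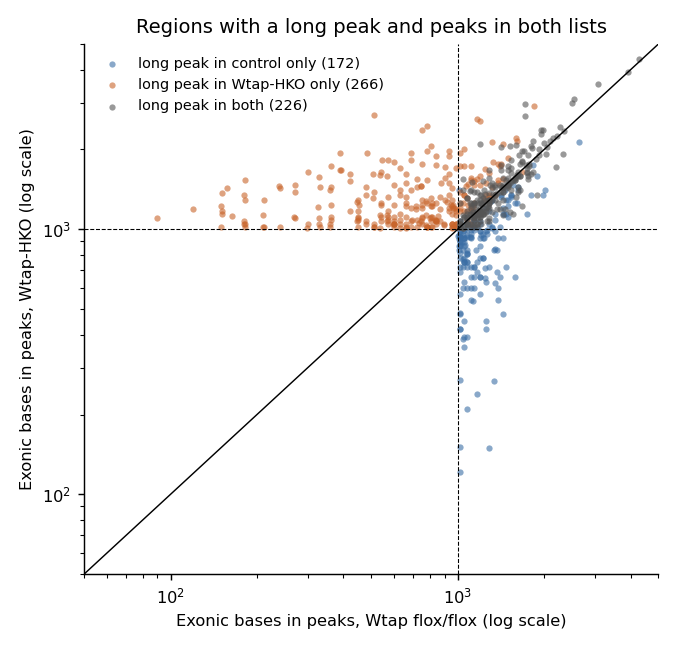
Exonic bases in peaks per region in Wtap flox/flox (x axis) and Wtap-HKO livers (y axis), both on log scales, for the 664 regions with a long peak and peaks in both lists. The 226 regions long in both lie along the diagonal, and the dashed lines mark 1000 bases.

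The edges of peaks that were long in both lists showed no common shift. Among 128 such regions with 1 single-block peak in each list, the 5′ edge lay further out in Wtap-HKO livers in 44, further in in 47 and at the same base in 37. At the 3′ edge the counts were 39, 50 and 39. The median shift was 0 bases at both edges, with quartiles of 30 bases to either side.

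The pieces of split peaks were usually close together. Of the 137 split control peaks, 122 met 2 Wtap-HKO peaks and 15 met 3. In the single-block ones the gaps between the pieces had a median of 149 bases, with quartiles of 89 and 238 and the reads were 150 bases long. In 17 of the 137 a piece was itself long. The mirror held more pieces, with 150 long Wtap-HKO peaks over 2 control peaks, 56 over 3, 8 over 4 and 3 over 5. Those gaps had a median of 208 bases, with quartiles of 118 and 268.

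Dido1, a PHD finger protein gene, held the longest control peak that broke into 3. Its 2638 bases at 13.3-fold met Wtap-HKO peaks of 990, 481 and 660 bases, at 10.3-fold, 8.83-fold and 7.1-fold, which together covered 80.8% of it. Dag1, which encodes dystroglycan, had 2009 bases at 8.14-fold that met pieces of 720, 421 and 270 bases, at most 4.36-fold. In Urgcp a control peak of 1978 bases at 19.9-fold met pieces of 300, 750 and 301 bases, at most 8.62-fold. Fold was lower in every piece than in the control peak for these 3 genes. The other control peaks that met 3 pieces and were named by the rule lay in Ccnt2, which encodes cyclin T2 (1529 bases), in the deubiquitinase gene Vcpip1 (1501 bases) and in Asxl1, a polycomb-associated gene (1496 bases). Ccnt2 was the exception in fold, with 11.4 in the control peak and 16.4 in the strongest piece.

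Apob and Plec were the genes with 3 long control peaks each, and they went opposite ways. Apob encodes the structural protein of very low density lipoprotein. Its control peaks of 1619, 1409 and 1050 bases, at 10-fold, 4.46-fold and 4.14-fold, were each split in 2 in Wtap-HKO livers. The first met pieces of 720 and 690 bases, and the last pieces of 271 and 121 bases that covered 37.3% of it. Over the whole gene, peaks held 6300 bases in control and 4234 in Wtap-HKO livers, and its longest Wtap-HKO peak had 870 bases. In Plec, control peaks of 2310 and 1261 bases were joined with 1 of 690 bases into the single Wtap-HKO peak of 4379 bases, at 10.3-fold against 9.53-fold. The other long control peak of Plec, with 1350 bases, was split into 811 and 271 bases. Over the whole gene Plec held 6636 bases in control and 6004 in Wtap-HKO peaks, so the join in one place went with fewer bases elsewhere.

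**Figure D4:**
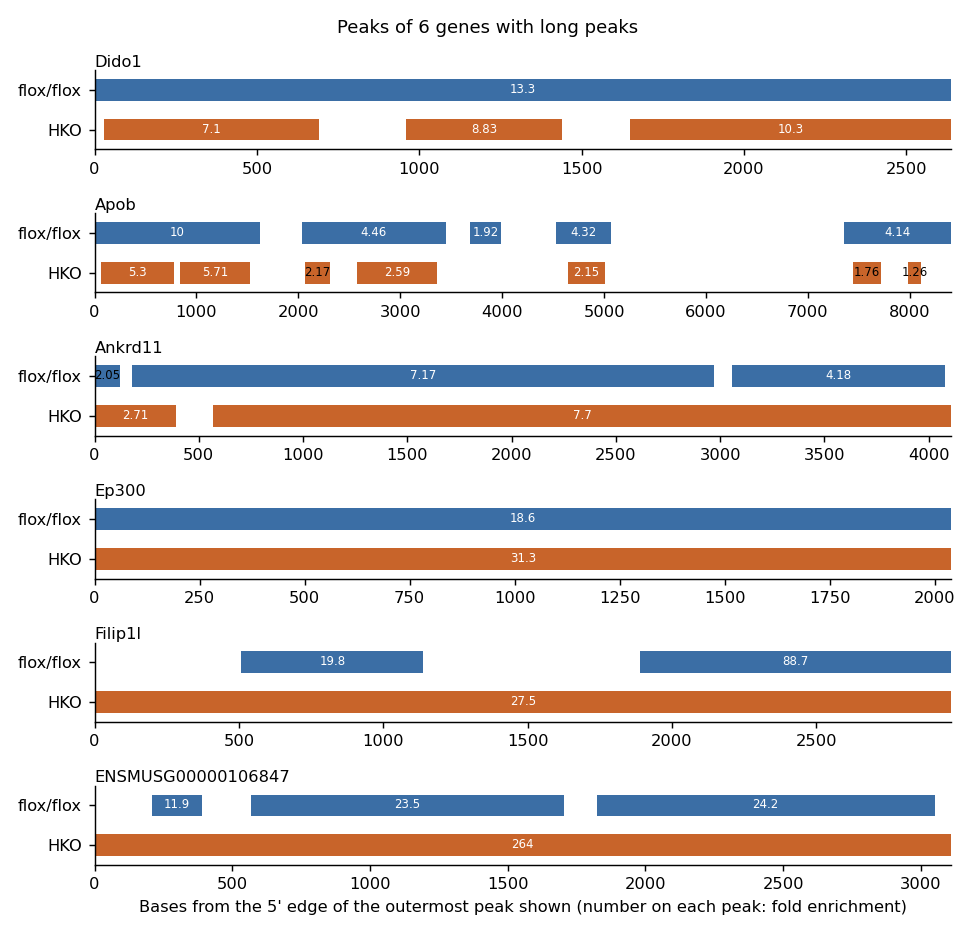
Peaks of 6 genes in Wtap flox/flox (upper bars) and Wtap-HKO livers (lower bars), with bases from the 5′ edge of the outermost peak shown on the x axis and the fold enrichment printed on each bar. Dido1 and Apob are broken in Wtap-HKO livers, Ep300 is the same 2039 bases in both, and Ankrd11, Filip1l and ENSMUSG00000106847 are joined.

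Joined peaks were frequent among the longest Wtap-HKO peaks. In Ankrd11 the control peaks of 1020 and 2789 bases became 1 peak of 3539 bases, while a 391-base Wtap-HKO peak took in the 5′ end of the stretch and a further control peak of 121 bases, and the region held 3930 bases in each list. In Mpeg1, a macrophage gene for a pore-forming protein, control peaks of 360, 2242 and 479 bases lay inside 1 Wtap-HKO peak of 3528 bases, at 15-fold and 22.1-fold. In Filip1l control peaks of 630 and 1079 bases lay inside 1 of 2967 bases, but fold was lower, at 27.5 against 88.7 in the stronger control peak, which was the highest of any long control peak. The gene ENSMUSG00000106847, to which the file gives no symbol, lies within the RefSeq spans of Peg13, an imprinted non-coding RNA, and Trappc9. Its control peaks of 1226 and 1137 bases at 24.2-fold and 23.5-fold, and 1 of 180 bases, were joined into 3110 bases at 264-fold, which was the highest fold of any long Wtap-HKO peak.

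Plekhg1 had that fold of 264 too, in a 1018-base peak. It was followed by Igsf10 at 198-fold, Rab7b, a small GTPase of endosomes, at 186-fold, Adrb1, the beta-1 adrenergic receptor, at 174-fold, and S1pr3, a sphingosine-1-phosphate receptor, at 173-fold. Each of these lay over 2 or 3 control peaks, whose strongest ranged from 25.5-fold in Rab7b to 41.3-fold in Igsf10. The deposited ratio does not give the IP and input signal behind it. Among long control peaks the highest folds after Filip1l were in Armc7 (54.5), in Spry1, an inhibitor of receptor tyrosine kinase signalling (51.1), and in the cytokine receptor genes Il10ra (47.6) and Ifnar2 (45.5). Spry1 went from 1289 to 1678 bases with a fold of 26.8, and Ifnar2 from 1170 to 1740 bases with a fold of 54.2.

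Peaks of the same or nearly the same length in both lists include Ep300, the gene of a histone acetyltransferase, with 2039 bases at 18.6-fold and 31.3-fold. Hexim1, an inhibitor of P-TEFb, had 1912 bases in 1 block from the start of the gene in both lists, at 14-fold and 24.6-fold. The peak of Zcchc14 had 2155 and 2215 bases, and that of Ssh2, a cofilin phosphatase gene, 2099 and 2159 bases. Fold was higher in the Wtap-HKO list in these 4, but this was not general. Of 21 regions with a long peak and 1 peak of exactly the same exonic length in each list, fold was higher in Wtap-HKO livers in 10, lower in 10 and the same in 1.

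The 6 long control peaks that shrank most met partners of 121 to 268 bases, and the deposited fold was lower in 5 of the 6. Rnf43 encodes a ubiquitin ligase that removes Wnt receptors, and its 1289-base peak at 8.7-fold met a 150-base peak at 2.71-fold. Mlycd encodes malonyl-CoA decarboxylase, and its 1020-base peak at 3.51-fold met 151 bases at 2.02-fold. Tenm3, a teneurin gene, went from 1078 bases at 29.9-fold to 210 at 4.62-fold. Trim7 went from 1018 to 121 bases, Ddx28 from 1340 to 268 and Gcnt2 from 1167 to 240, and Gcnt2 was the one whose fold was higher in the short peak, at 9.58 against 5.08. In the mirror the strongest contrasts were Cavin1, a coat protein gene of caveolae, with 120 control and 1196 Wtap-HKO bases, AI467606 with 90 and 1100, B3gnt9 with 157 and 1431, Spsb1 with 151 and 1376, and Gcnt1 with 181 and 1529.

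The 18 long Wtap-HKO peaks without any control partner were in 18 genes, 13 of which had no control peak at all. Their median fold was 48.5, the highest of any class of long peaks. The strongest were Cilp, a cartilage matrix protein gene (1228 bases, 79.5-fold), Spaar (1046 bases, 79.5-fold), the chemotactic receptor gene Gpr183 (1280 bases, 63.2-fold), the adhesion protein gene Clmp (1194 bases, 57.8-fold), the matrix glycoprotein gene Tnc (1107 bases, 56.9-fold) and the chemokine receptor gene Ccr1 (1432 bases, 56-fold). The longest of the 18 was in Tlr13, a toll-like receptor gene, with 1700 bases at 25.9-fold.

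By gene, the long peaks of the genotypes overlapped in part. They lay in 399 genes in control and 506 in Wtap-HKO livers, and 235 genes had one in both, which is 58.9% of the control genes and 46.4% of the Wtap-HKO genes. Genes with any peak were shared to 89.8% and 76.1%. Of the genes long in the control list alone, 162 had a shorter Wtap-HKO peak and 2 had none. Of those long in the Wtap-HKO list alone, 258 had a shorter control peak and 13 had none. Most differences between the lists were thus differences of length within the same genes. Long peaks seldom stood together, since 387 control and 490 Wtap-HKO genes had 1 each. For 118 control (28.6%) and 134 Wtap-HKO long peaks (25.7%) it was the only peak of its gene in the list. That share was not computed over all peaks. The number of peaks in the gene of a peak had a median of 2, with quartiles of 1 and 3. These values were the same for long peaks and for all peaks in both lists.

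Most long peaks lay within 1 exon. In the control list 90 (21.8%, interval 18.1 to 26.0) had 2 or more blocks, against 14.5% of all control peaks, and in the Wtap-HKO list 139 (26.6%, interval 23.0 to 30.6), against 19.2%. Longer peaks have more room for a junction, so this share too is tied to the rule. A single block of 1000 bases or more was present in 366 control and 471 Wtap-HKO long peaks. The most blocks were 8, in Eif3a, a subunit gene of translation initiation factor 3 (2035 bases in control and 1915 in Wtap-HKO livers), in Myh9, nonmuscle myosin heavy chain (1201 bases, control), and in Os9, a lectin gene of endoplasmic reticulum quality control (1046 bases, Wtap-HKO). Eif5b had 7 blocks in both lists, with 1526 and 1496 bases, and Cald1, caldesmon, had 7 in Wtap-HKO livers. Peaks of 2 or more blocks were split in 38.9% of 90 cases and those of 1 block in 31.6% of 323 in the control list, with overlapping intervals (29.5 to 49.2 and 26.8 to 36.8). In the Wtap-HKO list the shares were 49.6% of 139 and 38.6% of 383, with intervals of 41.5 to 57.8 and 33.9 to 43.6.

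Positions were read from RefSeq gene spans of GRCm38.p6, to which 400 control and 502 Wtap-HKO long peaks could be matched. Spans hold introns and do not mark coding ends, so stop codons could not be placed. An edge within 200 bases of the 5′ end of the gene was found for 22 long control peaks (5.50%, interval 3.66 to 8.19), against 10.7% of all control peaks, and for 68 long Wtap-HKO peaks (13.5%, interval 10.8 to 16.8), against 18.1% of all. At this limit of length the share was below that of all peaks in each list. Among control peaks of 1500 bases and more, 72 before matching to spans, it was 13.04%. No interval was made for that share, so it is not set above or below the 10.7% of all control peaks. The share at the 5′ end was higher in the Wtap-HKO than in the control list for long peaks and for all peaks. At the 3′ end the counts were 42 (10.5%), against 9.98%, and 54 (10.8%), against 8.21%. The midpoint lay in the last 10% of the span for 161 (40.3%), against 41.8%, and for 188 (37.5%), against 35.4%, which is close to the share of all peaks in both lists.

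A pair of long Wtap-HKO peaks contained annotated miRNA hairpins of the same strand, and these are shown because the same bases belong to both RNAs. They were the 1346-base peak of Chpf2, a chondroitin polymerizing factor gene, and the 1650-base peak of P2rx7, an ATP-gated ion channel gene. The mature sequences are from RefSeq, with the seed in capitals. Mature miRNAs were not measured here.
mmu-miR-671-5p: aGGAAGCCcuggaggggcuggag
mmu-miR-671-3p: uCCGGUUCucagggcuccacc
mmu-miR-8115: cCGCAAUAgcaacaagggcucu

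Chpf2 also shows a limit of the lists. A peak of 1348 bases in Smarcd3, on the opposite strand, covered nearly the same place, at 16.2-fold beside 16.4-fold. The labels do not say that strand was kept, so reads of such genes cannot be told apart. Exonic bases were shared with a peak on the opposite strand by 33 long control and 52 long Wtap-HKO peaks, and with another peak on the same strand by 32 and 38. These counts were not made over all peaks, so they do not set long peaks apart from shorter ones.

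Among gene groups, the m6A readers had long peaks often in the control list. The lists of genes were chosen with results of these data known, so the counts are descriptions without a test. Unless stated otherwise, lengths given for genes of these groups are those of the longest peak in each list. A gene whose longest peak was split could keep nearly the same bases in all its peaks together. Of all genes with a symbol and a control peak 4.79% had a long one, and of those with a Wtap-HKO peak 5.18%. Of the readers and erasers 4 of 6 genes with a control peak had a long one, and 2 of 9 with a Wtap-HKO peak. The 4 were the cytoplasmic YTH readers Ythdf1, Ythdf2 and Ythdf3 and the nuclear reader Ythdc1. The longest peak went from 1345 to 658 bases in Ythdf1, from 1166 to 1017 in Ythdf2, from 1738 to 1648 in Ythdf3 and from 1467 to 689 in Ythdc1. Over the whole gene, peaks held 1345 and 1137 bases in Ythdf1 and 1555 and 1289 in Ythdf2. They held 2069 and 2038 in Ythdf3 and 2577 and 2459 in Ythdc1. Fold was lower in the 3 Ythdf genes, as in Ythdf1 with 5.48 and 3.32, while in Ythdc1 the 689-base piece had 58.5-fold against 12-fold in the whole control peak. Of the writer complex, Rbm15, an RNA-binding adaptor, was the 1 gene of 6 with a long control peak, and its longest peak went from 1228 to 959 bases. Over the whole gene, Rbm15 peaks held 1769 bases in control and 2248 in Wtap-HKO livers. Wtap itself had 3 peaks in each list and none of them was long. With peaks of 748, 360 and 240 bases in control and 569, 450 and 210 bases in Wtap-HKO livers, its peaks do not check the deletion, which needs expression values.

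Chromatin regulators had long peaks in 12 of 53 genes in the control list and in 12 of 52 in the Wtap-HKO list, and 11 genes were in both. Arid1a, a subunit gene of SWI/SNF remodelling complexes, had 1918 and 2008 bases, and Tet2, a 5-methylcytosine dioxygenase gene, 1290 and 1200. Asxl1 was long in the control list alone, at 1496 against 449 bases. Kmt2e, of the lysine methyltransferase family, was long in the Wtap-HKO list alone, at 660 against 1378. Over the whole gene, peaks held 2788 and 2668 bases in Asxl1 and 2221 and 2729 in Kmt2e. The long peaks of this group were, apart from Asxl1 and Kmt2e, peaks that both genotypes held. Of large scaffold and cytoskeletal proteins 3 of 31 and 4 of 31 had a long peak. There Golgb1, of the Golgi, was long in the control list (1619 against 900 bases), and Ahnak and the kinase anchor Akap12 in the Wtap-HKO list (451 against 1110 and 180 against 1526 bases). Over the whole gene, peaks held 4111 and 4143 bases in Golgb1, 3736 and 9403 in Ahnak and 421 and 2426 in Akap12. Zinc finger genes with a Zfp symbol were near the background, at 14 of 271 and 16 of 287. Among them Zfp623 went from 1888 to 1139 bases, Zfp281 from 1886 to 958 and Zfp87 from 598 to 1731.

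Some genes of hepatocyte function had long peaks, and several of the control ones were shorter or split in Wtap-HKO livers, as most long control peaks were. Apolipoprotein and lipoprotein assembly genes had 2 of 16 in the control list, Apoa5 and Apob, and 1 of 15 in the Wtap-HKO list. Plasma protein, complement and coagulation genes had 1 of 46, the fibrinogen chain gene Fga, whose longest peak went from 1073 to 836 bases, and in the Wtap-HKO list there was no long peak in 51 genes. The cytochrome P450 genes had 1 of 33, Cyp8b1, a sterol 12-alpha-hydroxylase of bile acid synthesis. Its control peak of 1830 bases at 5.23-fold met pieces of 841 and 900 bases that together kept 95.1% of it. Solute carriers had 7 of 177 and 4 of 186, and Slc16a5 went from 1611 to 985 bases and Slc30a1, a zinc exporter, from 1409 to 1469. No long peak was found in the genes listed for the urea cycle and amino acid catabolism (23 genes with a peak in each list). The same held for those listed for fatty acid oxidation and ketogenesis (16 and 13). It also held for lipogenesis and cholesterol synthesis and uptake (21 and 20). These lists are short and not complete, and Mlycd, named above with a long control peak, is in none of them. With 4.79% and 5.18% over all genes, few long peaks would be found in lists of this size.

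Insulin and growth hormone signalling genes had 3 of 20 and 2 of 23. Foxo1, a transcription factor restrained by insulin, had a control peak of 1530 bases at 22.3-fold that met pieces of 840 and 511 bases, while the peaks of Ghr, the growth hormone receptor gene, had 1230 and 1140 bases and those of Pik3r1, a regulatory subunit of PI3 kinase, 1051 and 1111. Nuclear receptors and liver-enriched transcription factors had 5 of 27 and 3 of 26. The pioneer factor genes Foxa1 and Foxa3 were long in the control list alone, at 1589 against 510 and 1139 against 600 bases, and Cebpb (1327 and 1357 bases), the glucocorticoid receptor gene Nr3c1 (1288 in both) and Rxra (1016 in both) were long in both. Of 14 long noncoding RNAs looked up by name, 1 had a control peak, which was not long, and none had a Wtap-HKO peak under its symbol.

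Genes known from other liver cells more often had a long peak in the Wtap-HKO list than in the control list. Of Kupffer cell and leukocyte genes 1 of 10 with a peak had a long one in the control list and 5 of 21 in the Wtap-HKO list, and their peaks held 8723 and 19927 exonic bases. Mpeg1 was long in both, and C1qa, C1qb, Cd5l and Cx3cr1 in the Wtap-HKO list. The complement gene C1qb went from 735 to 1059 bases, Cd5l, a secreted macrophage protein, from 270 to 1108 bases in 5 blocks, and Cx3cr1, a chemokine receptor, had no control peak and 1462 bases. Of endothelial and stellate genes 1 of 22 and 9 of 29 had a long peak, with 11048 and 33097 exonic bases. The vascular cadherin gene Cdh5 was long in both, at 1283 and 1730 bases. Flt4, a VEGF receptor, went from 450 to 1767 bases, the matrix gene Lum from 180 to 1343 and Eng, endoglin, from 690 to 1260. Of cholangiocyte genes none of 5 and none of 7 had a long peak.

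Defining markers of each cell type were looked up as well. In the control and Wtap-HKO lists, 0 and 1 of 6 Kupffer cell markers had a long peak. The counts were 1 and 2 of 6 for endothelial and 0 and 1 of 6 for stellate markers. No hepatocyte or cholangiocyte marker had a long peak in either list. The counts that follow are of peaks of any length. Of 6 Kupffer cell markers 3 had a peak in control and 5 in Wtap-HKO livers, with 1949 and 4520 exonic bases, and Adgre1 had none in either. Of 6 endothelial markers 4 had a peak in each list, with 2815 and 5447 bases, and Stab1 and Stab2 had none. Of 6 stellate markers 3 and 5 had a peak, with 1830 and 4733 bases, and Reln had none in either. Of 6 cholangiocyte markers 3 and 4 had a peak, with 1170 and 1324 bases. Of 8 hepatocyte markers 4 had a peak in each list, with 1882 and 1670 bases, and Cps1, Ass1 and Serpina1a had none in either. These are peaks and not levels of expression. In whole liver, more cells of a type and more RNA per cell cannot be told apart. The part of other cell types in the long Wtap-HKO peaks was not tested.

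**Figure D5:**
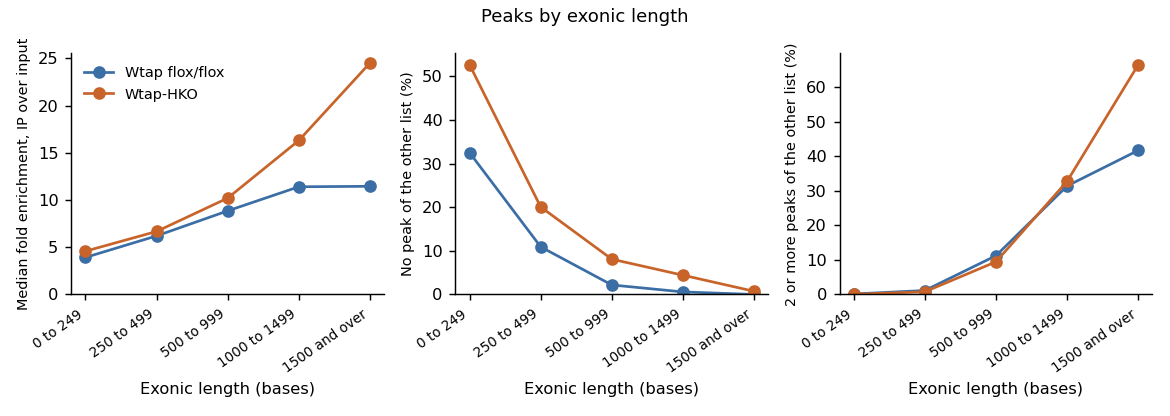
Median fold enrichment, share of peaks with no peak of the other list and share with 2 or more (%), by exonic length in 5 classes, blue for Wtap flox/flox and orange for Wtap-HKO. Across the classes the share with no counterpart falls from 32.5% to 0.587% at 1000 to under 1500 bases in the control list and from 52.6% to 0.730% at 1500 bases and more in the Wtap-HKO list.

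Across all lengths, the longer a peak was, the more rarely it was missing from the other list. Under 250 bases 32.5% of control and 52.6% of Wtap-HKO peaks had no partner, and at 1000 to under 1500 bases 0.587% and 4.42%. Of the 72 control peaks of 1500 bases and more every one had a partner. The share that met 2 or more peaks rose at the same time, to 41.7% of control and 66.4% of Wtap-HKO peaks of that length. Both trends are tied to length itself, since a longer peak has more room for partners. The 3 longest Wtap-HKO peaks after Plec, Ankrd11 and Mpeg1 were in ENSMUSG00000106847, Gdf2 and Filip1l, and of these 6 peaks Gdf2 alone met a single control peak. Further members of the 12 longest were Ccdc80, an extracellular matrix gene (2700 bases over control peaks of 181, 91 and 241), the interferon-induced Samd9l (2669), Slfn5 (2602) and Lrrc32, which encodes a docking receptor of latent TGF-beta (2568). The gene ENSMUSG00000063286, within the RefSeq span of Gm8995, gave 2 of the 12 through overlapping peaks of 2893 and 2787 bases, so it counts as 1 place.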

How the data were processed

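m6A-RIP-seq was done on pooled livers, with 2 IP and 2 input libraries per genotype. Per the labels and the study's methods, the authors trimmed reads with fastp 0.19.11, aligned them to GRCm38 with BWA 0.7.12, searched motifs with HOMER 4.9.1 and used exomePeak to find stretches with more IP than input reads. They deposited 1 combined peak list per genotype. How replicates were combined is not given in the sources used here. The fold enrichment that the authors deposited is the IP signal divided by the input signal, a linear ratio. The p-values and false discovery rates that the authors deposited are on a log10 scale (score). Read totals are not part of these lists, so depth is unknown, and how weak an enrichment could still be found is unknown as well. A further deposited list holds the authors' own comparison of the genotypes (log2 fold changes, p-values and false discovery rates), which was not used.

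The exonic length of a peak is the sum of its blocks, and peaks of at least 1000 bases were kept. Starts are 1-based. Overlapping peaks of the other list were merged before partners were counted, and at least 1 shared exonic base on the same strand made a partner. Shares carry 95% Wilson intervals (statsmodels 0.14.6). Tables were made with Python 3.11.15, pandas 2.3.3, numpy 2.4.6 and scipy 1.17.1, and figures with matplotlib 3.10.9. The partner classes were tested on simulated peaks with known classes. Positions, start windows and miRNAs are from RefSeq tables of GRCm38.p6. Since each list is 1 value per peak with no replicate, no test was run.

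Members, gene lists and alternatives were chosen with earlier results of these data known. The genes named are the 12 longest peaks of each list, the 6 with the highest fold, the 6 with no partner, the most partners or the most shrinkage, the 4 with the most blocks, genes with 3 or more long peaks, the peaks next to the limit, and up to 4 members of each gene list by length. Genes beside these (Hexim1, Art4, Chpf2, Smarcd3, P2rx7, Wtap and Tlr13, with further members of short lists) were chosen after their values were seen. Alternatives were other length limits, genomic span, merged peaks, a minimum fold, other overlap rules, peaks of the same gene and a wider distance to gene ends.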

Additional observations from a re-analysis of the deposited data

How the results depend on the processing

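Of 98 comparisons with an alternative over 20 results, 65 stayed close (within the 95% interval of a share or median, or 1.5-fold of a count) and 33 did not, 26 of them under another length limit. At 800 bases the lists held 878 control and 1061 Wtap-HKO long peaks. Then 28.1% of control peaks had 2 or more partners and 42.6% a single shorter one, against 33.2% and 33.7% at 1000 bases. For Wtap-HKO peaks 29.97% had 2 or more, 36.8% a single shorter and 28.5% a single partner as long or longer, against 41.6%, 31.8% and 23.2%. Shared genes were 50.8% of the Wtap-HKO genes, the median folds 10.6 and 14.9, and in the Wtap-HKO list 22.3% had 2 or more blocks and 10.05% an edge at the 5′ end. At 1500 bases, with 72 and 137 peaks, 41.7% of control peaks had 2 or more partners, 26.4% a single shorter one and none (0 of 72) was without a partner. For Wtap-HKO peaks the shares were 66.4% with 2 or more, 16.8% shorter, 16.1% as long or longer and 0.730% with none. Shared genes were 29.1% of the Wtap-HKO genes, peaks of 2 or more blocks 26.4% and 32.8%, the Wtap-HKO median fold 24.5 and the control share at the 5′ end 13.04%. By genomic span, which adds introns, 1938 and 2927 peaks reached 1000 bases. Without merging overlapping peaks of the other list, 38.7% and 46.0% had 2 or more partners. Within 500 bases of the gene ends, the control shares were 9.50% at the 5′ and 18.3% at the 3′ end, and the Wtap-HKO share at the 3′ end 17.5%. A minimum fold, a stricter overlap, partners of the same gene, merged peaks and leaving out overlapping peaks, the last chosen after seeing the data, moved no result further. No paired analysis was possible because each genotype has 1 combined list. For the same reason no replicate could be left out, and depth, which is unknown, may limit the length at which a peak is called.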
